A study of Rattus norvegicus with 8 samples.

Results

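Oligodendrocyte progenitor genes were followed in newly made RNA from cultured rat neurons that had or had not been silenced. They are 7 genes: the surface proteins Cspg4 and Pdgfra, the transcription factors Olig1, Olig2, Sox10 and Sox8, and Lhfpl3. They were picked by symbol in a count table of 16871 genes. The table held 6 of the 7, all of which passed the expression filter and were tested among 11372 genes, and Lhfpl3 was not analysed here.

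Nascent RNA was measured by BrU-seq. Bromouridine (BrU, 2 mM), which cells build into RNA, was given for 30 min, and transcripts holding it were pulled down and sequenced. Neurons of newborn Sprague Dawley rats were grown as primary cultures. The titles call them hippocampal, whereas the growth protocol names tissue of both hippocampus and cortex. Groups are named by a first and a second treatment, T for 1 µM tetrodotoxin (TTX, which stops neurons firing by blocking their sodium channels) and H for water. TT cultures had TTX for 24 h, a washout of 48 h and TTX again for 4 h, and HT cultures had water first and TTX second. TH cultures had TTX first and water second, and HH cultures had water both times. BrU was present at the end of the second treatment, on day 17 in vitro, and each group had 2 libraries. No label ties replicates to cultures or animals. The p-values therefore cover the spread between these libraries alone, which may be technical.

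Oligodendrocyte progenitors are dividing glial cells that give rise to the myelinating cells of the brain and persist among neurons. They carry the proteoglycan NG2, the product of Cspg4, and the receptor for platelet-derived growth factor (PDGF), the product of Pdgfra, through which PDGF-A keeps them dividing. The factors Olig1 and Olig2 have a basic helix-loop-helix (bHLH) DNA-binding domain, and Olig2 specifies the lineage. Sox8 and Sox10 are closely related SoxE factors with a high-mobility-group DNA-binding domain, and Sox10 is needed for myelin gene expression.

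The sequences before the annotated starts of Cspg4, Pdgfra and Olig2 are given because these 3 genes, of the 6, have an entry in the RefSeq promoter table (build GRCr8), and because Cspg4 and Pdgfra shared 1 order of the groups and Olig2 had another. Each reads 5′ to 3′ on the gene's own strand and holds only bases outside the annotated gene. Capitals mark the GC box GGGCGG and the CCAAT box CCAAT, 2 general promoter motifs, on either strand. The Cspg4 window is chr8:66160692-66160941 (plus strand), the Pdgfra window chr14:33408605-33408766 (minus strand) and the Olig2 window chr11:43961335-43961584 (plus strand).
Cspg4: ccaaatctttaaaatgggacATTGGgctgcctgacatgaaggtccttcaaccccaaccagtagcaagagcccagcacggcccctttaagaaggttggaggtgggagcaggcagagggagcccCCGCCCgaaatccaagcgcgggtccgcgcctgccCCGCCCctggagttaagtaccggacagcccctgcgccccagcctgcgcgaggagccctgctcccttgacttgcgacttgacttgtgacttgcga
Pdgfra: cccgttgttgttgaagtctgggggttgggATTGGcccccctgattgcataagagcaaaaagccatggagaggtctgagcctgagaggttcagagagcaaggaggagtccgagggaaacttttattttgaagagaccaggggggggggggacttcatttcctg
Olig2: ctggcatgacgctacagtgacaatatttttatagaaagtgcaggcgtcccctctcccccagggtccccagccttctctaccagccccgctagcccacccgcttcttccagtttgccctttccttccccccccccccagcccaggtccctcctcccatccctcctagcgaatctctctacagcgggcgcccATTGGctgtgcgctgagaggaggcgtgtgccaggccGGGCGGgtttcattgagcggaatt
All 3 windows held 1 CCAAT box, a motif found in 34.0% of 33469 promoter windows of 250 bases and in 23.3% of windows of 162 bases. The Cspg4 window held 2 GC boxes and the Olig2 window 1 (30.5% of windows of 250 bases), and the Pdgfra window held 0 (18.2% of windows of 162 bases). The E-box CANNTG, the type of site that bHLH factors such as Olig2 bind, was not in these letters on either strand, nor were ACAAAG and AACAAT, 2 short sites of the type that Sox factors bind. The E-box was present in 65.5% of all windows of 250 bases and 50.8% of those of 162, ACAAAG in 16.3% and 11.0%, and AACAAT in 10.3% and 7.16%.

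Libraries held from 3489176 to 4959887 counts. Member counts ran from 62 for Sox10 in HH replicate 1 to 937 for Pdgfra in TH replicate 2, with a counting error of 12.7% and 3.27% of the value. The HH replicates differed most from each other, and such a gap does not say which of the 2 is the unusual library. Replicates lay over 2-fold apart in 546 genes in HH but in no more than 281 in any other group, and HH replicate 1 held the lowest value of 5 of the 6 members. No member passed the adjusted threshold of 0.05 in any comparison of this report (edgeR's quasi-likelihood test with Benjamini-Hochberg adjustment over 11372 genes), and neither did any other gene (0%), so all differences are values that did not pass. DESeq2 and limma-voom also called 0 of the 6.

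Levels are counts per 1000000 (CPM) of the normalized library total. They are not per length, so levels were compared for each gene across libraries and not between genes.

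The surface genes were highest where TTX came second without earlier TTX. Cspg4 stood at 114 and 120 CPM in the HT libraries, at 92.4 and 92.8 CPM in the TT libraries, at 85.9 and 93.9 CPM in the TH libraries and at 67.5 and 73.0 CPM in the HH libraries. Both HT libraries lay above the other 6, both HH libraries lay below the other 6, and the TT values fell inside the range of TH. Pdgfra stood at 197 and 230 CPM in HT, 205 and 176 CPM in TT, 152 and 190 CPM in TH, and 145 and 157 CPM in HH. The group means kept the order of Cspg4, but the ranges of HT and TT, of TT and TH, and of TH and HH overlapped.

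The bHLH genes, which neighbour each other in the RefSeq gene order, did not follow one pattern. Olig2 stood at 137 and 125 CPM in HT, 138 and 148 CPM in TT, 125 and 112 CPM in TH, and 105 and 97.5 CPM in HH. Its means ran HH, TH, HT, TT from low to high, and no 2 groups overlapped, although the lower HT value (124.65 CPM) and the higher TH value (124.59 CPM) were nearly equal. Olig1, which acts later, in oligodendrocyte maturation, stood at 46.8 and 50.0 CPM in HT, 38.6 and 42.2 CPM in TT, 37.8 and 34.0 CPM in TH, and 31.5 and 43.6 CPM in HH. HT lay above all the other groups, TT lay above TH, and the HH replicates spanned both.

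The SoxE genes shared the group order of Olig2. Sox8 stood at 51.2 and 53.9 CPM in HT, 53.1 and 69.7 CPM in TT, 43.6 and 46.3 CPM in TH, and 30.8 and 38.1 CPM in HH. All 4 libraries given the second TTX lay above the 4 given water, with HT and TT overlapping. Sox10 stood at 38.8 and 50.0 CPM in HT, 41.1 and 56.0 CPM in TT, 35.9 and 39.5 CPM in TH, and 19.1 and 34.4 CPM in HH. Its replicates differed most of the 6 in HH (a gap of 0.83 on the log2 scale) and in TT (0.44), with HT overlapping TT and TH, TT lying just above TH and HH lying below all 3. TT replicate 2 held the highest value of Olig2, Sox10 and Sox8, and HT replicate 2 that of Cspg4, Pdgfra and Olig1.

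**Figure D1:**
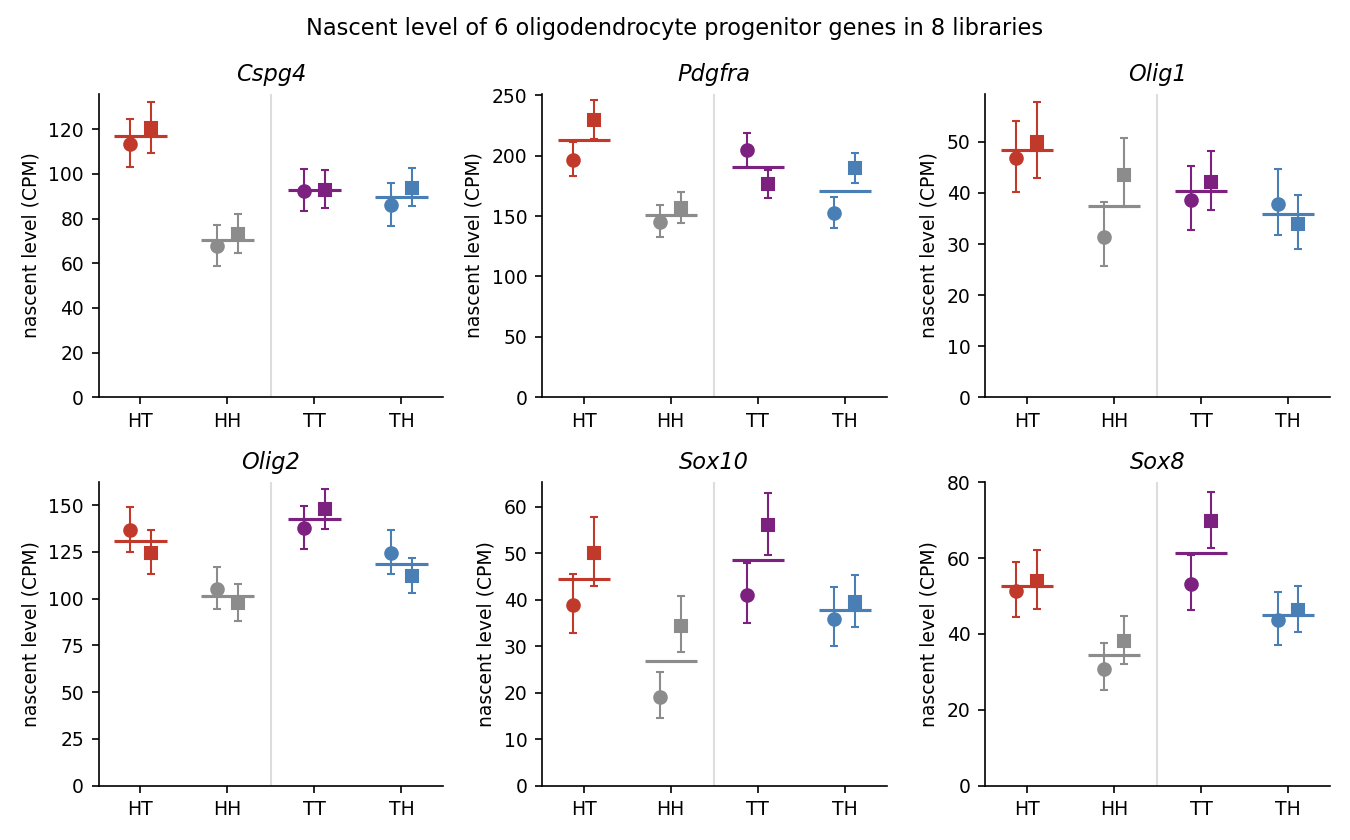
Nascent level in CPM of the 6 genes, 1 panel each, with HT beside HH and TT beside TH. Circles are replicate 1 and squares replicate 2, with 95% Poisson intervals for counting error only, and bars are group means. Cspg4 and Pdgfra have their highest mean in HT, and Olig2, Sox10 and Sox8 have theirs in TT.

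After a first treatment with water, TTX (HT against HH) left all 6 members higher, each without overlap between the libraries. Their log2 fold change was above 0, as was that of 50.2% of all genes tested. Of all genes, 18.6% lay higher without overlap in this comparison of 2 libraries with 2. The log2 fold change was 0.73 ± 0.12 for Cspg4 (SE, n = 2 per group, edgeR adjusted p = 0.519) and 0.50 ± 0.15 for Pdgfra (adjusted p = 0.637). It was 0.37 ± 0.13 for Olig2 (adjusted p = 0.707) and 0.36 ± 0.17 for Olig1 (adjusted p = 0.779). The SoxE genes stood at 0.71 ± 0.26 for Sox10 (adjusted p = 0.743) and 0.60 ± 0.17 for Sox8 (adjusted p = 0.637). In fold terms these are 1.66 for Cspg4, 1.41 for Pdgfra, 1.29 for Olig2, 1.28 for Olig1, 1.64 for Sox10 and 1.52 for Sox8.

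The median of the 6 was 0.55, against 0.00071 over all genes tested. At an unadjusted p under 0.05, 5 of the 6 were higher, all but Olig1, against 3.75% of all genes. Without HH replicate 1 the 6 still lay higher without overlap, as did 34.4% of all genes, and 4 were higher at an unadjusted p under 0.05; without HT replicate 2 that count was 3. Without HH replicate 1, with the lone HH library assumed to vary like the other groups, Sox10 stood at 0.37 and Olig1 at 0.15. Without HH replicate 2 they stood at 1.21 and 0.62, so the size of both rests on which HH library is used. Cspg4 moved only between 0.68 and 0.79 when any 1 library, or HH and HT replicate 1 together, was left out.

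In cultures silenced before (TT against TH), the differences were smaller for each of the 6, with a median of 0.22 against 0.0040 over all genes. All 6 lay above 0, as did 50.9% of all genes. Sox8 stood at 0.45 ± 0.16, Sox10 at 0.37 ± 0.25 and Olig2 at 0.27 ± 0.12 on the log2 scale (edgeR adjusted p = 1.00 for each). Olig1 stood at 0.18 ± 0.17, Pdgfra at 0.15 ± 0.15 and Cspg4 at 0.041 ± 0.12 (adjusted p = 1.00 for each). Olig1, Olig2, Sox10 and Sox8 lay higher in TT than in TH without overlap (15.9% of all genes), and Cspg4 and Pdgfra overlapped. The same 4 genes lay higher without overlap in both HT against HH and TT against TH (5.09% of all genes). Sox8 and Olig2 were the 2 higher at an unadjusted p under 0.05 (1.71% of all genes). DESeq2 gave 0, and edgeR with DESeq2 size factors or with no low-count filter gave 1. The 2 became 1 without either HT library, either TH library or TT replicate 1. Without TT replicate 2 the count was 0 and the median 0.17, with Sox10 at 0.12 and Sox8 at 0.24. The 95% interval of the difference ran from -0.22 to 0.31 for Cspg4 and from -0.17 to 0.47 for Pdgfra, which is what these libraries could resolve.

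Averaged over history, all 6 were higher at an unadjusted p under 0.05 after the second TTX, against 4.35% of all genes, and the median was 0.36 against -0.0011 over all genes. Without TT replicate 2, and likewise without TH replicate 1, 4 were. Sox10 stood at 0.54 ± 0.18, Sox8 at 0.53 ± 0.12 and Cspg4 at 0.39 ± 0.086. Pdgfra stood at 0.32 ± 0.10, Olig2 at 0.32 ± 0.088 and Olig1 at 0.27 ± 0.12 (n = 4 per arm, edgeR adjusted p from 0.258 to 0.718). Over the 4 libraries of each arm, Sox8 averaged 57.0 ± 8.57 CPM with TTX and 39.7 ± 6.85 CPM with water (SD). Olig2 averaged 137 ± 9.48 CPM with TTX and 110 ± 11.5 CPM with water. In these 2 of the 6 genes all TTX libraries lay above all water libraries, against 2.69% of all genes, and with DESeq2 size factors in only 1, Sox8. With library totals as the only scaling the 2 were Cspg4 and Sox8, so Olig2 separated the arms under 1 of 3 scalings. The other 4 overlapped in the main scaling, Cspg4 because TH replicate 2 (93.9 CPM) lay above both TT libraries.

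**Figure D2:**
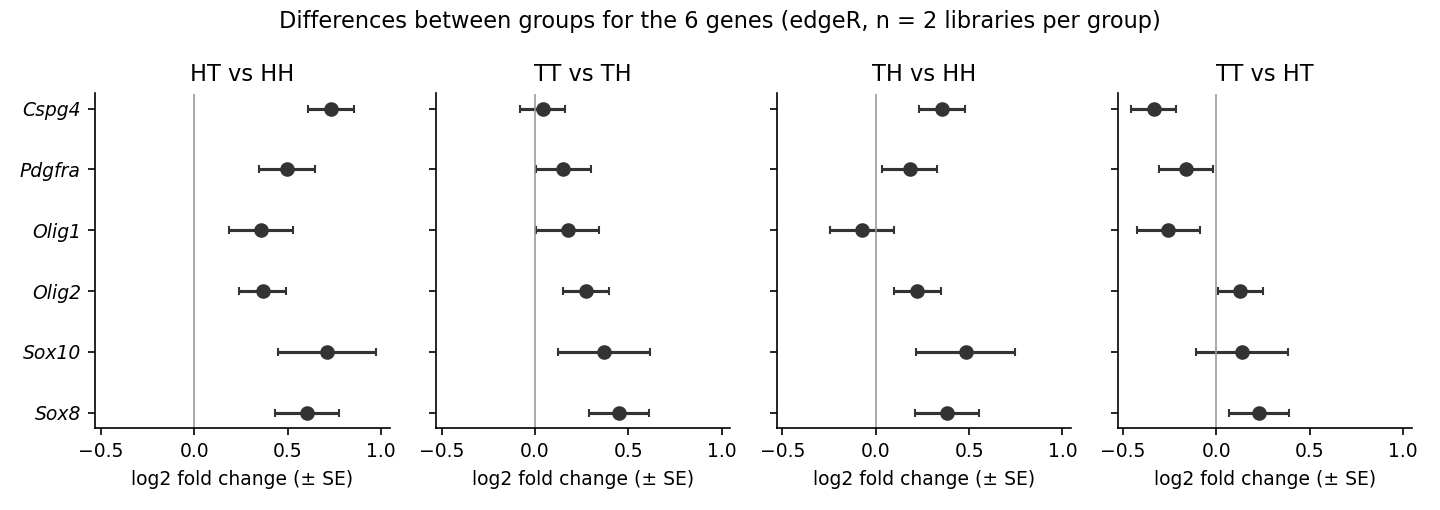
Log2 fold change of the 6 genes in the 4 pairwise comparisons, with the first-named group over the second and bars for 1 SE (edgeR, n = 2 libraries per group). In HT against HH all 6 points lie above 0, and in TT against HT the surface genes and Olig1 lie below 0 while Olig2, Sox10 and Sox8 lie above it.

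The earlier TTX was compared next, after its washout. Without the second TTX (TH against HH), Sox10 stood at 0.48 ± 0.26, Sox8 at 0.38 ± 0.17 and Cspg4 at 0.36 ± 0.12 (log2 ± SE, n = 2 per group, edgeR adjusted p = 0.891 for each). Olig2 stood at 0.22 ± 0.12, Pdgfra at 0.18 ± 0.15 and Olig1 at -0.073 ± 0.17 (adjusted p from 0.891 to 0.968). Thus 5 of the 6 lay above 0, as did 50.2% of all genes. Cspg4, Olig2, Sox10 and Sox8 lay higher in TH than in HH without overlap (16.7% of all genes). Cspg4 and Sox8 were higher at an unadjusted p under 0.05 (2.06% of all genes), and 0 members were so without HH replicate 1, where Sox10 stood at 0.14, or without TH replicate 2. DESeq2 also gave 0. The count was 1 without TH replicate 1 or either HT library, and 3 without HH replicate 2, where Sox10 stood at 0.98. Olig1 changed sign with library totals as the only scaling (0.015).

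Under the second TTX (TT against HT) the members split, with 3 of the 6 above 0 (50.1% of all genes). Cspg4 stood at -0.34 ± 0.12, Olig1 at -0.26 ± 0.17 and Pdgfra at -0.16 ± 0.15. Sox8 stood at 0.23 ± 0.16, Sox10 at 0.14 ± 0.25 and Olig2 at 0.13 ± 0.12 (edgeR adjusted p = 1.00 for each of the 6). Cspg4 and Olig1 lay lower in TT than in HT without overlap (16.2% of all genes), and Olig2 lay higher without overlap (18.2% of all genes). Cspg4 alone was lower at an unadjusted p under 0.05 (1.06% of all genes), and 0 members were with DESeq2 or without HT replicate 2 or either TT library. Without TT replicate 1, 1 member was instead higher at an unadjusted p under 0.05, with the highest estimate that of Sox8 (0.41). Without TT replicate 2, Sox10 stood at -0.11 and Sox8 at 0.014, so that the higher SoxE values in TT rest on that library.

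Averaged over the second treatment, the earlier TTX left Cspg4 (0.0094 ± 0.086) and Pdgfra (0.0091 ± 0.10) near 0. Above 0 were 5 of the 6, as were 50.0% of all genes, and 0 lay higher without overlap (1.73% of all genes). The 5 became 3 without HH replicate 1, HT replicate 1, both of these or TH replicate 2. Sox10 stood at 0.31 ± 0.18, Sox8 at 0.31 ± 0.12, Olig2 at 0.18 ± 0.087 and Olig1 at -0.17 ± 0.12 (edgeR adjusted p from 0.814 to 0.990). Sox8 was the 1 member higher at an unadjusted p under 0.05 (3.01% of all genes), and 0 were with DESeq2 or without HH replicate 1, HT replicate 1 or TT replicate 2. Without HH replicate 1, and likewise without HH and HT replicate 1 together, 1 member was lower at an unadjusted p under 0.05, with Olig1 the lowest at -0.27 and -0.29. The 95% intervals of the surface genes, -0.18 to 0.20 for Cspg4 and -0.22 to 0.24 for Pdgfra, bound what these libraries could show.

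Whether the response to the second TTX differed with history is the interaction, TT minus TH less HT minus HH. It was negative for all 6 members, and above 0 for 51.2% of all genes. The median of the 6 was -0.26, but -0.090 without HH replicate 1 and -0.42 without HH replicate 2. Without HH replicate 1, and likewise without TT replicate 1, 1 of the 6 lay above 0. Cspg4 stood at -0.69 ± 0.17, with a 95% interval of -1.07 to -0.31 unadjusted for the number of genes, and its unadjusted p of 0.00192 ranked 3 of 11372 genes. It did not pass (edgeR adjusted p = 1.00), and it was the 1 member lower at an unadjusted p under 0.05 (0.906% of all genes); 2 were without HH replicate 2 or TH replicate 1. Its estimate lay between -0.75 and -0.63 when any 1 library, or HH and HT replicate 1 together, was left out. Pdgfra and Sox10 stood at -0.34 ± 0.21 and -0.34 ± 0.36, Olig1 at -0.18 ± 0.24, Sox8 at -0.15 ± 0.24 and Olig2 at -0.094 ± 0.17. Without HH replicate 1, Olig1 stood at 0.017 and Sox10 at -0.0043. HH enters both HT against HH and TH against HH, so these comparisons share its libraries.

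Ratios of read counts within a library do not depend on scaling and show whether 2 genes changed unequally. The genes of each ratio were chosen with results known. No share over other gene pairs was worked out, so a lack of overlap here is a description only. Cspg4 over Olig2 stood at 0.831 and 0.966 in the HT libraries against 0.642 and 0.749 in HH, and at 0.671 and 0.628 in the TT libraries against 0.690 and 0.838 in TH. The ratio thus lay higher in HT than in HH and lower in TT than in TH, without overlap in either. HT and TH overlapped. The nearest values of TT and TH, 0.671 and 0.690, rest on 371 over 553 and 311 over 451 reads. The pair joins the members with the most negative interaction (Cspg4, -0.69) and the least negative (Olig2, -0.094). Pdgfra over Cspg4 stood at 1.73 and 1.91 in HT against 2.15 and 2.15 in HH, and at 2.21 and 1.90 in TT against 1.77 and 2.02 in TH.

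Olig2 over Olig1 stood at 3.57 and 3.50 in TT and at 3.29 and 3.30 in TH, against 2.92 and 2.49 in HT and 3.34 and 2.24 in HH. TT lay above TH without overlap, both lay above HT, and the HH replicates spanned HT and TH. Sox8 over Sox10 stood at 1.32 and 1.08 in HT, 1.29 and 1.25 in TT, 1.22 and 1.17 in TH, and 1.61 and 1.11 in HH, and the ranges of HT and HH covered all of TT and TH.

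**Figure D3:**
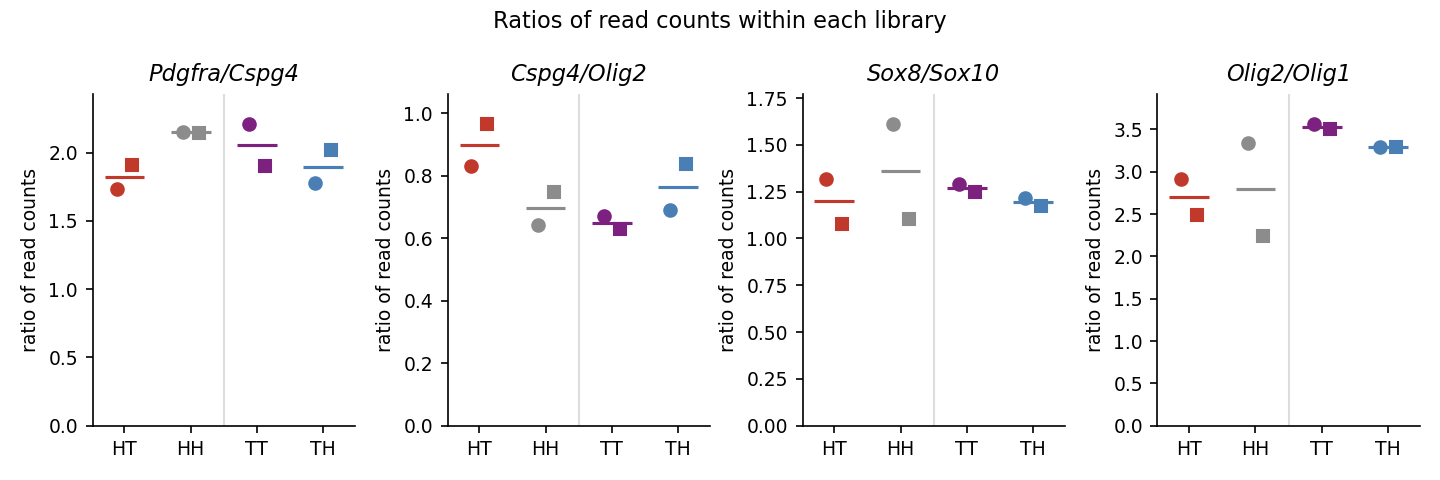
Ratio of the read counts of 2 genes in each library, by group, with circles for replicate 1, squares for replicate 2 and bars for group means. Cspg4 over Olig2 has its highest mean in HT (0.831 and 0.966), although TH replicate 2 (0.838) lies above the lower HT value. Olig2 over Olig1 is highest in TT, from 3.50 to 3.57.

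Across the 8 libraries the members' log2 CPM correlated by pair with Pearson's r from 0.37 to 0.94, as a description only, since the libraries share treatments and composition. Sox10 and Sox8 were the closest pair (r = 0.94, Spearman's rho = 0.98), followed by Cspg4 and Pdgfra (r = 0.89, rho = 0.83) and Olig2 and Sox8 (r = 0.86, rho = 0.88). The neighbours Olig1 and Olig2 were the least alike (r = 0.37, rho = 0.33). The genes most like the mean standardized profile of the 6 were Pstpip2, Gab1, Zcchc24, Tpx2 and Espl1, with r from 0.97 to 0.98 over 8 libraries. These genes, and those by single member below, were picked for the highest r among 11372 tested genes. A high r thus follows in part from the search, and shared regulation was not tested. The mean profile of the 6 was lowest in HH replicate 1 (-1.54), with HH replicate 2 next (-0.69). Each r of this paragraph can rest in part on HH replicate 1, and none was worked out without it. Gab1 encodes a docking protein of receptor tyrosine kinase signalling, and Tpx2 and Espl1 act in mitosis. By single member, the 2 most alike were Tnk2 and Tspan2 for Sox8 (r = 0.99 for both), Rpusd4 and Wnt7b for Sox10, Caskin2 and Polg for Olig2, and Tnrc18 and Ilk for Olig1. For Cspg4 they were Myh9l1 and Cenpn and for Pdgfra Myo1e and Pomt1, with r from 0.95 to 0.98 for these 5 members. Tspan2 encodes a tetraspanin of oligodendrocytes.

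The genes beside the members on the chromosome, looked up after values were seen, give a local comparison for the second TTX averaged over history. Kit, next to Pdgfra and also a receptor tyrosine kinase gene, stood at 0.23 ± 0.097. Polr2f and Pick1, on either side of Sox10, stood at 0.18 ± 0.15 and 0.045 ± 0.12, and Snx33, beside Cspg4, at 0.33 ± 0.21 (log2 ± SE, n = 4 per arm).

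Other genes of the lineage were read from lists chosen with earlier results of these data known, and 0 genes of any list passed the adjusted threshold (edgeR). Of 19 tested progenitor and early lineage genes other than the members, 17 lay above 0 in the second TTX averaged over history (49.7% of all genes), with a median of 0.25 and 5 higher at an unadjusted p under 0.05 (4.35% of all genes). Gpr17, a receptor of committed progenitors, stood at 0.91 ± 0.22, and the matrix proteoglycan gene Bcan at 0.34 ± 0.11. Sox6, a factor that holds progenitors undifferentiated, stood at 0.42 ± 0.14, the matrix gene Tnr at 0.38 ± 0.14 and the heparan sulfate editing gene Sulf2 at 0.25 ± 0.079. Without TT replicate 2 the 5 became 3.

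Of 14 tested genes of differentiating and myelinating oligodendrocytes, 13 lay above 0 in the same average (49.7% of all genes), with a median of 0.60 and 10 higher at an unadjusted p under 0.05 (4.35% of all genes). Tspan2 stood at 0.72 ± 0.12, the Wnt effector Tcf7l2 at 0.64 ± 0.16, the early differentiation gene Enpp6 at 0.57 ± 0.14 and the calcium channel gene Itpr2 at 0.42 ± 0.096. Without TT replicate 2 the median was 0.37. In TT against TH their median was 0.71, and 0.29 without that library. Averaged over the second treatment, the earlier TTX gave a median of 0.55 with 14 of 14 above 0, and 12 higher at an unadjusted p under 0.05 (3.01% of all genes), against a median of 0.093 and 1 of 6 for the progenitor genes. That median was 0.37 without TT replicate 2, 0.52 without HH replicate 1 and 0.57 without HH and HT replicate 1 together. In each of these fits 14 of 14 stayed above 0, and fewer than 12 were higher at that p. Whether the 2 lists differ in this was not tested.

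Of 13 tested genes of PDGF ligands, the second receptor and receptor signalling, 8 lay above 0 in the second TTX averaged over history (49.7% of all genes), with a median of 0.096, and 1, the PI3-kinase subunit gene Pik3r1 (0.28 ± 0.099), was higher at an unadjusted p under 0.05 (4.35% of all genes). Without TT replicate 2 the median was 0.020 and the count at that p 0, and without HH replicate 1 they were 0.050 and 3. The ligand genes Pdgfc and Pdgfb stood at 0.18 ± 0.12 and -0.42 ± 0.25, the second receptor gene Pdgfrb at 0.26 ± 0.17 and Pik3ca at -0.14 ± 0.091. Of 23 tested regulators that hold or release the progenitor state, 18 lay above 0 (49.7% of all genes) with a median of 0.074. Notch1, a receptor that holds progenitors undifferentiated, stood at 0.45 ± 0.11 and was the 1 higher at an unadjusted p under 0.05 (3 without HH replicate 1, 2 without TT replicate 2), a count near the 4.35% of all genes, with Erbb3 at 0.73 ± 0.34, Gpr37 at 0.65 ± 0.35, Fgfr3 at 0.32 ± 0.16 and Sox2 at 0.24 ± 0.11 (log2 ± SE, n = 4 per arm).

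Markers of other cells moved beside the members, and their part in the result was not tested. In bulk libraries, more cells of a type and more RNA made per cell cannot be told apart. Of 13 markers of dividing cells, 13 lay above 0 in the second TTX averaged over history against 49.7% of all genes (median 0.62), and 9 were higher at an unadjusted p under 0.05 against 4.35% of all genes, among them Rrm2 (0.86 ± 0.18), Cdk1 (0.75 ± 0.16), Cenpf (0.72 ± 0.14), Top2a (0.64 ± 0.15) and Mki67 (0.62 ± 0.16). Their summed level was 246 to 307 CPM in HT against 177 to 182 CPM in HH, and 264 to 286 CPM in TT against 187 to 218 CPM in TH. That of the 6 members was 584 to 629 CPM in HT against 399 to 443 CPM in HH, and 568 to 585 CPM in TT against 480 to 515 CPM in TH. Both sums separated TTX from water in either history. Of single genes, 5.09% lay higher without overlap in both comparisons, and no share was worked out for sums. A sum is weighted toward genes with high counts, and Cspg4 and Pdgfra alone overlapped between TT and TH.

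Astrocyte markers lay above 0 in 10 of 11 tested against 49.7% of all genes (median 0.17), and 3 were higher at an unadjusted p under 0.05 against 4.35% of all genes, with Gfap at 0.40 ± 0.12, Aqp4 at 0.29 ± 0.095, S100b at 0.28 ± 0.11, Fgfr3 at 0.32 ± 0.16 and Aldoc at -0.23 ± 0.12. Without HH replicate 1, 8 of the 11 astrocyte markers lay above 0 (median 0.22), and without TT replicate 2, 9 did (median 0.20). The summed level of the astrocyte markers was 2235 to 2652 CPM in HT against 1945 to 2365 CPM in HH, which overlapped. It was 2313 to 2457 CPM in TT against 1982 to 2153 CPM in TH, which did not. Neuron markers lay below 0 in 12 of 12 (median -0.11, highest -0.012), with 49.7% of all genes above 0. At an unadjusted p under 0.05, 2 were lower (2.59% of all genes). Gad1 stood at -0.58 ± 0.14, Gad2 at -0.44 ± 0.12, Snap25 at -0.35 ± 0.19, Rbfox3 at -0.16 ± 0.098 and Stmn2 at -0.12 ± 0.094. By history, 6 of the 12 lay above 0 in HT against HH (50.2% of all genes) and 2 in TT against TH (50.9%). The summed level of the neuron markers was 4898 to 5372 CPM in HT against 5383 to 7111 CPM in HH. These did not overlap, but the nearest values, 5372 and 5383 CPM, were nearly equal. The sum was 4566 to 5162 CPM in TT against 4922 to 5491 CPM in TH, which overlapped. It is weighted toward genes with high counts, such as Syt1 (up to 3216 CPM).

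Cspg4 also marks pericytes of vessels and Pdgfra marks fibroblasts, so markers of these cells were read too. Of 10 pericyte and vascular genes 4 passed the expression filter, Pdgfrb (9.56 to 21.3 CPM), Abcc9, Notch3 and Tagln. Of those that did not, Higd1b had 0 counts in all 8 libraries, Kcnj8 0 in 6 and Rgs5 0 to 3 counts. In HT against HH 4 of the 4 tested lay above 0 (50.2% of all genes), with a median of 0.41. Without HH replicate 1, 3 of the 4 lay above 0 in that comparison, with a median of 0.21. In the second TTX averaged over history 3 of 4 did (49.7% of all genes), with a median of 0.19. There, 1 was higher at an unadjusted p under 0.05 (4.35% of all genes). Whether such cells add to the Cspg4 level was not tested. The summed level of the 10 genes was 98.3 to 145 CPM in HT against 68.5 to 101 CPM in HH, and 95.01 to 106 CPM in TT against 87.2 to 97.5 CPM in TH. Tagln stood at 0.82 ± 0.33, Notch3 at 0.12 ± 0.15 and Abcc9 at -0.053 ± 0.15 in the second TTX averaged over history. Of the fibroblast genes, 8 were in the table and 3 were tested, and Col1a1, Col1a2 and Col3a1 had 0 to 3 counts in every library. Dcn stood at -0.55 ± 0.36, Fn1 at 0.26 ± 0.20 and Thy1, which neurons also express, at -0.14 ± 0.19, and the summed level was 56.7 to 61.8 CPM in HT against 61.4 to 66.5 CPM in HH, and 43.4 to 57.8 CPM in TT against 40.3 to 64.9 CPM in TH. Microglia markers summed to between 13.5 and 21.7 CPM in all libraries, with 4 of 10 tested: C1qa at 0.69 ± 0.62, Cd68 at -0.30 ± 0.35, Cx3cr1 at -0.19 ± 0.24 and Itgam at 0.29 ± 0.44.

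**Figure D4:**
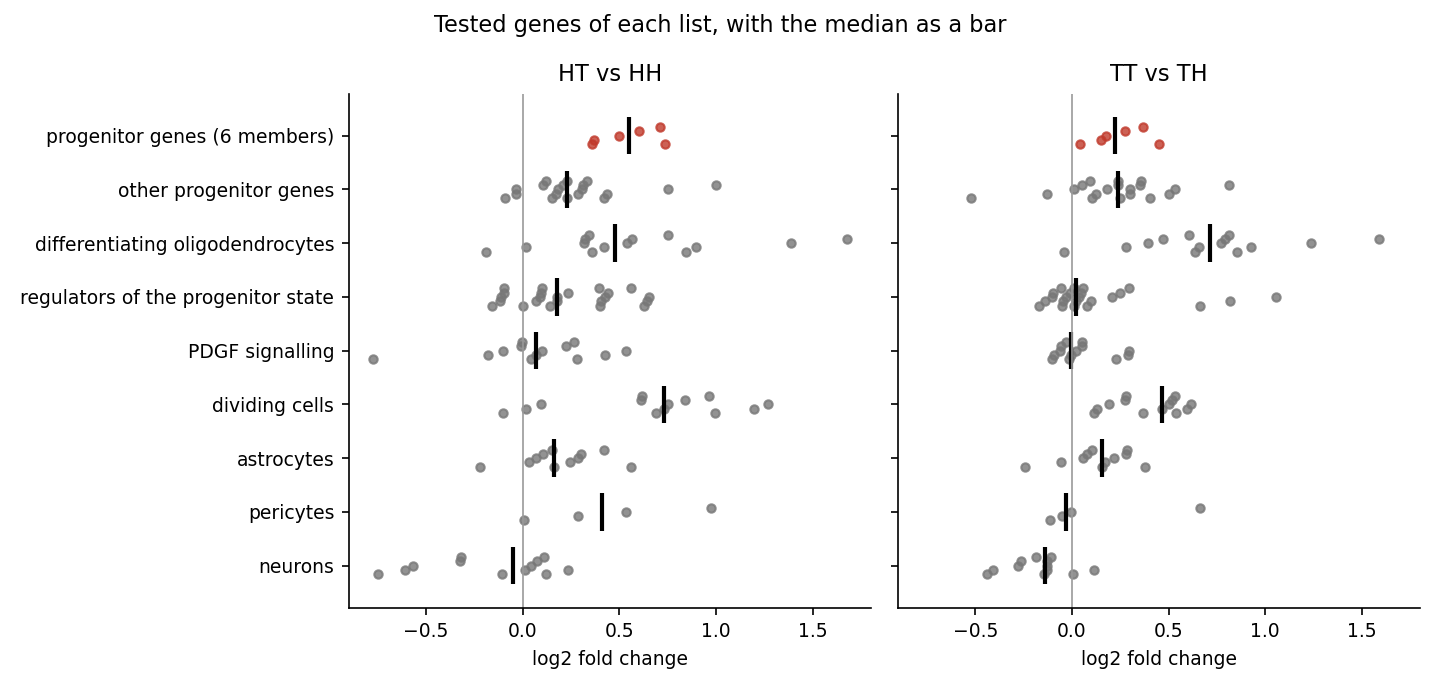
Log2 fold change of each tested gene of the lists (points) with the list's median (bar), in 2 comparisons, HT with HH and TT with TH. The microglia list and the fibroblast list are not drawn. The 6 progenitor genes have a median of 0.55 in HT against HH and 0.22 in TT against TH, dividing cell markers 0.73 and 0.47, and differentiating oligodendrocyte genes 0.48 and 0.71.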

How the data were processed

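The authors deposited 1 table of raw read counts (whole numbers) by gene symbol, 1 column per library. Per the submitters' processing notes, the authors' tools were FastQC, TopHat2, Bowtie2 and featureCounts, on genome build rn6. Tool versions, annotation, strand and the counting of introns were not given in the sources used here. Much nascent RNA is intronic and would be missed by exon counts, and overlapping genes cannot be told apart without strand. The number at the start of a sample's description matched it to 1 of 8 columns, groups and replicate numbers came from the titles, and 2 further columns that matched no sample were not used.

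Counts were fitted in R 4.3.3 with edgeR 4.0.16: expression filter, TMM scaling (trimmed mean of M values), a model with 4 group means that leaves 4 residual degrees of freedom, and the quasi-likelihood test (robust) with Benjamini-Hochberg adjustment. The SE was worked back from F and the log2 change, and rests on the spread in all 4 groups, moderated across genes. Log2 CPM used a prior count of 2. The step was tested on simulated counts, only for the second TTX averaged over history and with changes larger than those of the members there. That test does not cover changes of the members' size or the pairwise comparisons. Alternatives were DESeq2 1.42.0, limma-voom (limma 3.58.1), other scalings, no low-count filter, a replicate block, fits of the compared groups only and each library left out. Python 3.11.15 with matplotlib 3.10.9 made the figures. Poisson intervals cover counting error only.

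The members and gene lists were chosen with earlier results of these data known. Genes named were all members, up to 5 of each list by smallest p in the second TTX averaged over history, and the genes most like the members by Pearson's r, placeholder symbols left out. Of the list genes so chosen, 1 is not reported here.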

Additional observations from a re-analysis of the deposited data

How the results depend on the processing

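Under the alternatives, 636 of 654 member values kept their direction and none passed the adjusted threshold, the smallest adjusted p being 0.0590 (edgeR, Cspg4 in HT against HH without HH replicate 2, the lone HH library then assumed to vary like the other groups). The other 18 turned sign. With library totals as the only scaling, Olig1 in TH against HH stood at 0.015. With 1 library, or HH and HT replicate 1 together, left out, it ran from -0.28 to 0.19, Cspg4 in TT against TH from -0.020 to 0.11 and Sox10 in TT against HT from -0.11 to 0.34 (-0.039 without both replicates 1). In the interaction, Olig1 ran from -0.44 to 0.017 and Sox8 from -0.37 to 0.026. In the history average, Cspg4 ran from -0.040 to 0.040 (-0.024 without TH replicate 2) and Pdgfra from -0.075 to 0.082 (-0.072 without both replicates 1).

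Over all genes, 0 passed in each comparison. In the second TTX averaged over history DESeq2 called 13 and edgeR without a low-count filter 16, and left-out libraries gave 0 to 7. They gave 0 to 32 in HT against HH, 0 to 1 in TT against TH, 0 to 121 in TH against HH, 0 to 2 in the interaction and 0 to 100 in the history average, the highest number without HH replicate 2 except in TT against TH (without TH replicate 2). Members higher without overlap in the second TTX averaged over history numbered 1 with DESeq2 size factors, against 2. Leaving out HH replicate 1 in counts of members and lists was chosen after seeing the data.

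Same-numbered libraries deviated together only in HH and HT (r = 0.45 over genes, -0.066 to 0.087 for the other 5 pairs), and no label pairs them. The fit with the replicate number as a block called 0 genes in each comparison, and in it Cspg4 in HT against HH stood at 0.73. At an unadjusted p under 0.05 the block gave 1 member higher in TT against TH (2 without it), 3 in TH against HH (2) and 2 in the history average (1). At counts of 62 to 937 per library, Sox10 and Olig1 are limited most by depth.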
